A study of Mus musculus with 2 samples.

Results

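Interleukins are secreted proteins through which leukocytes, epithelium and stromal cells signal to each other, and each acts through a receptor built from a binding chain and 1 or more signalling chains. Interleukins, their receptors and their soluble antagonists were taken here as the genes whose platform symbol starts with Il and a number. The rule found 76 genes, each with 1 probe of its own, among 19505 named genes on the array. A further 8 genes with such symbols in RefSeq, among them Il1rl1, Il2rg and Il12b, were not analysed here. By role, 36 members encoded receptor chains and 40 encoded ligands or soluble binding proteins and antagonists.

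The signals came from lung cells of mice that were sorted as SPC/GFP+ and EpCAM+. SPC stands for surfactant protein C, whose expression marks alveolar type 2 cells, and EpCAM is an adhesion molecule on the surface of epithelium. The air group was the control, and the smoke group had been exposed to smoke; both exposures lasted 3 months, and both groups carried the SPC/GFP label. Each group was measured on 1 array of the Clariom S Mouse type, which samples whole transcripts. The sources used here do not give the number, strain or age of the animals, the kind of smoke, how the reporter was built or whether animals were pooled. With 1 array per group there is no SD, no test and no p-value, and each difference compares these 2 samples.

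Interleukin-1 family cytokines act at epithelial barriers. They signal through receptors that share the adaptor MyD88 and lead to NF-kB. Most other interleukins act through Janus kinases and STAT transcription factors, and several share a receptor chain, such as the common gamma chain, the common beta chain, gp130 or the interleukin-10 receptor beta chain. Alveolar type 2 cells are a known source of interleukin-33, which is stored in the nucleus and released on damage.

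Values are log2 signals as deposited, and a difference is smoke minus air on that scale, so that a difference of 1 is 2-fold. The level filter was 4.57, the median of all probe values. A gene was called higher or lower when it differed by at least 2-fold and its brighter array reached the filter. The 2 arrays had probe medians of 4.61 in air and 4.53 in smoke. The median difference over the 19489 genes below the upper limit of the scale was -0.02, and their SD was 0.49. Sftpc, Sftpb, Sftpa1, Lamp3, Slc34a2 and Lyz2 stood at that limit, 19.93, on both arrays, and all 5 epithelial markers were above the filter on both arrays. Of these 5 markers, 4 had differences below 0, with a median of -0.12. Krt8, at 10.50 in air and 9.39 in smoke, was called lower. Markers outside the sort were also above the filter on both arrays: 6 of 7 leukocyte markers and 8 of 8 endothelial markers.

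Of the 76 members, 4 were at least 2-fold higher in smoke and 3 at least 2-fold lower. Among all 19489 genes, the same rule called 2.1% higher and 1.32% lower, 3.43% in either direction, against 9.21% of the members. The higher members were Il7, Il10rb, Il1r2 and Il6. The lower members were Il18, Il17b and Il18r1. All 7 differences were below 3-fold. The median difference of the members was -0.03, beside -0.02 for all genes, and 34 members were above 0, 40 below and 2 at 0, where 47.7% of all genes were above 0. The quartiles lay close to those of all genes, with values of -0.28 and 0.30 against -0.30 and 0.28.

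Most members gave little signal in these cells. On both arrays 48 of 76 members, 63.2%, were below the filter, beside 46.5% of all genes. Their signals ran from 1.87 to 4.47 and their differences from -0.84 to 0.72. Another 23 were above the filter on both arrays, and 5 on only 1: Il18 and Il5 on the air array, Il1r2, Il1rn and Il16 on the smoke array. A gene that enters through 1 array has to differ, so the 5 are given apart; such genes were called in 22.4% of cases over the whole array. Of the 23 members measured on both arrays, 3 were called higher (Il7, Il10rb and Il6) and 2 lower (Il18r1 and Il17b). Genes of that kind were called higher in 3.31% and lower in 1.57% of cases, 4.88% in all. At 1.5-fold, 5 of the 23 were higher and 3 lower, beside 13.5% and 7.2% of such genes.

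**Figure D1:**
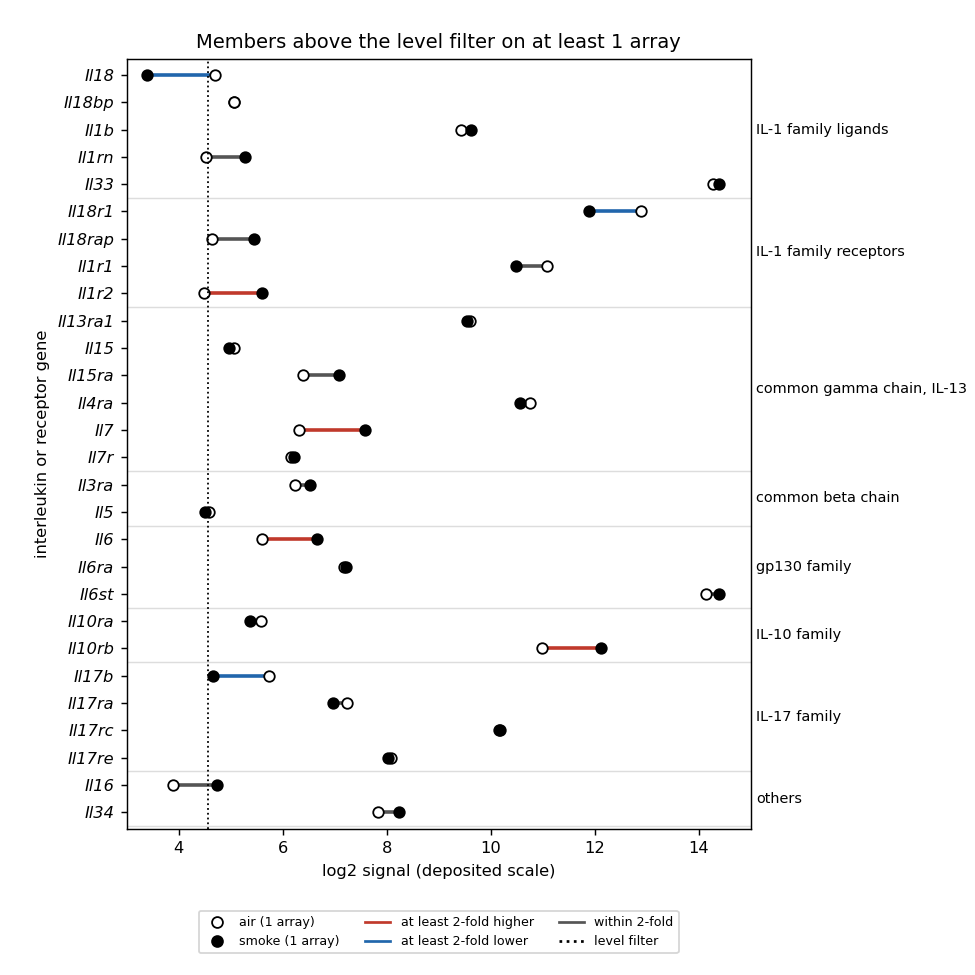
Log2 signals of the 28 members above the level filter on at least 1 array (x axis, deposited scale; y axis, genes by role group), with an open circle for the air array and a filled circle for the smoke array. The 4 red lines join the members at least 2-fold higher in smoke and the 3 blue lines those at least 2-fold lower; Il33 and Il6st, the brightest rows, have short lines at 14.28 and 14.39 and at 14.13 and 14.38.

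Genes of like level gave a second background. For each member the 200 genes nearest in mean level had a robust SD of differences, a scaled median absolute deviation, of 0.24 to 0.57. Of the 76 members, 9 lay at least 2 such SDs from the median of their neighbours, while 7.01% of all genes did. They were Il18r1, Il10rb, Il6, Il18 and Il7 among the called members, and Il31, Il17rb, Il24 and Il20ra, all 4 below the filter on both arrays. Il1r2 and Il17b, both called, lay 1.99 and 1.96 SDs away. By quartile of mean level, the members called numbered 0 of 25 in the lowest, 1 of 26 in the next, 4 of 14 in the third and 2 of 11 in the highest. All genes of those quartiles were called in 0.0%, 2.4%, 6.85% and 4.45% of cases.

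**Figure D2:**
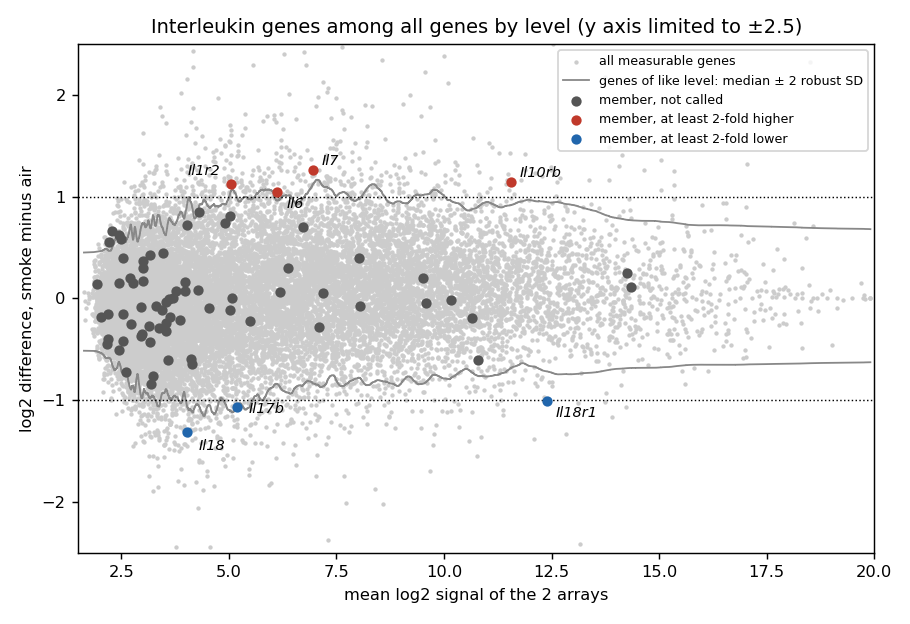
Log2 difference, smoke minus air (y axis, limited to 2.5 either way), against the mean log2 signal of the 2 arrays (x axis) for all measurable genes in grey and the 76 members in colour; dotted lines mark 2-fold and grey lines the median of genes of like level with 2 robust SDs on either side. The 7 called members sit at the edge of the grey cloud, and most uncalled members lie at signals below 4.57.

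Il7, the cytokine that sustains lymphocyte precursors and memory T cells, had the largest difference of the higher members. Its signal was 6.32 in air and 7.58 in smoke, which differ by 1.26 or 2.39-fold. Il7r, its binding receptor chain, was at 6.16 and 6.22, a difference of 0.06. The ligand was therefore past 2-fold while its receptor chain was within it.

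Il10rb encodes the accessory chain shared by the receptors for interleukin-10, interleukin-22 and the lambda interferons. It was at 10.98 in air and 12.12 in smoke, higher by 2.20-fold. Among the binding chains that pair with it, Il10ra was at 5.59 and 5.37, and Ifnlr1 at 6.97 and 7.13. Il22ra1 was below the filter, at 2.99 and 2.91. So the shared chain alone passed 2-fold, and the 3 binding chains differed by -0.22, 0.16 and -0.08.

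Il6 is a cytokine of acute inflammation whose receptor pairs Il6ra with gp130, the product of Il6st. Its signal was 5.60 in air and 6.65 in smoke, which differ by 1.05 or 2.07-fold. Il6ra was at 7.17 and 7.22, and Il6st at 14.13 and 14.38. The receptor chains thus differed by 0.05 and 0.25, within 2-fold. Socs3, a feedback inhibitor induced by gp130 signals, was at 6.39 in air and 6.35 in smoke.

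Il1r2 encodes a decoy receptor that binds interleukin-1 without signalling. It was at 4.49 in air, under the filter, and at 5.61 in smoke, which differ by 1.12 or 2.17-fold. With an offset of 16 added to the linear signals, which shrinks differences at low signal, the difference was 0.75. Il1r2 is abundant in neutrophils, and 9 of 10 listed neutrophil markers were in the table. Their median difference was 0.49; 4 were above the filter on both arrays, and their summed signal was 9.13 in air and 9.61 in smoke on the log2 scale. Camp and Ngp, granule genes of that lineage, were below the filter on both arrays, and S100a8 and S100a9 differed by 0.28 and -0.19. Cxcr2 and Csf3r, receptors of neutrophils above the filter on both arrays, differed by 0.98 and 0.60. Retnlg, above the filter on the smoke array alone, differed by 0.90. Mmp8, below the filter on both arrays, differed by 0.99. Of the 9 neutrophil markers, 7 were above 0, 2 below and 0 called, where 47.7% of all genes were above 0. The part of these cells in the Il1r2 signal was not tested. In sorted cells measured in bulk, a difference in the number of cells of a type and a difference in RNA per cell cannot be told apart.

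Il18, an interleukin-1 family cytokine that induces interferon gamma, had the largest difference of all members. Its signal was 4.69 in air, just above the filter, and 3.38 in smoke, which differ by -1.31, a signal 2.48-fold lower. With the offset the difference was -0.66. Il18r1, the chain that binds it, was at 12.89 in air and 11.88 in smoke, lower by 2.01-fold. Il18rap, the signalling partner of Il18r1, was at 4.63 and 5.44, a difference of 0.81, and Il18bp, the soluble decoy of interleukin-18, was at 5.07 on both arrays. The ligand and its binding chain were thus past 2-fold on the lower side, while the partner chain and the decoy were within 2-fold. Il17b, an interleukin-17 family ligand, was at 5.73 in air and 4.66 in smoke, lower by 2.10-fold, and its difference of -1.07 was -0.74 with the offset.

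Il18r1 was called lower, and Il1r1 differed by -0.61 without being called, on an array that also differed in markers of other cell types. All 8 endothelial markers were above the filter on both arrays, 7 of 8 had differences below 0, 2 were called lower (Cldn5 and Eng), and the median difference was -0.77. Their summed signal was 15.25 in air and 14.58 in smoke on the log2 scale. Of 6 fibroblast markers, Col1a1, at 6.24 and 5.06, and Pdgfrb, at 6.09 and 5.09, were called lower, the median was -0.26, and the summed signal was 7.98 in air and 7.59 in smoke. Over 12 macrophage and monocyte markers the median was -0.16, with Adgre1, Marco and Siglecf below the filter on both arrays, and a summed signal of 17.92 on each array, most of it from Lyz1; Chil3 was called lower, at -1.40. Markers of T and NK cells had a median of 0.09 over 9 genes, with 2 above the filter on both arrays. Cd3d, at 3.63 and 4.66, was called higher through the smoke array alone. So was Cpa3, at 3.59 and 4.98, among 8 mast cell and basophil markers with a median of -0.15. Among 6 markers of group 2 innate lymphoid cells and eosinophils, the median was -0.14. There Arg1, at 4.61 and 3.14, was called lower through the air array alone. The 7 leukocyte and 5 B cell markers had medians of -0.03 and -0.15, with 0 called. The part of these cells in the interleukin signals was not tested.

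The called members nearest the 2-fold line were Il18r1 at -1.01, Il6 at 1.05 and Il17b at -1.07. Il20, at -0.84, was below the filter on both arrays and could not be called. Nearest the line from within, among members above the filter on at least 1 array, were Il16 at 0.85 and Il18rap at 0.81. The robust SD of genes of like level was 0.41 for Il18r1 and 0.53 for Il16, wider than the distance between these sizes.

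RefSeq promoter windows of 300 bases, from 250 before a gene's start to 50 after it (build GRCm38.p6), were matched for 59 members and 72 windows, and for 4 of the called members. The 4 are shown because they were the only called members with a window. Il6 and Il1r2 were called higher, and Il18 and Il18r1 lower. On both strands 5 motifs were searched: the NF-kB consensus, AP-1 (TGANTCA), STAT (TTCNNNGAA), C/EBP (TTGCNNAA) and an 8-letter form of the D-box (TTANNTAA). Capitals mark the matches; the windows are 5′ to 3′ on the plus strand, Il6 at chr5:30012864-30013163, Il1r2 at chr1:40085843-40086142, Il18 at chr9:50554450-50554749 and the most downstream of 3 Il18r1 windows at chr1:40465756-40466055.
Il6: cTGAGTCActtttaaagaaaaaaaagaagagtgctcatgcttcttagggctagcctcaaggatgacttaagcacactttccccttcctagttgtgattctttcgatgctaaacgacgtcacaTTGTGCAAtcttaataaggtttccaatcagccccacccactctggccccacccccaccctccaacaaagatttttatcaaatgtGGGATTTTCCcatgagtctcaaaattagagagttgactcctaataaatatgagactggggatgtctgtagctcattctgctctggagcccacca
Il1r2: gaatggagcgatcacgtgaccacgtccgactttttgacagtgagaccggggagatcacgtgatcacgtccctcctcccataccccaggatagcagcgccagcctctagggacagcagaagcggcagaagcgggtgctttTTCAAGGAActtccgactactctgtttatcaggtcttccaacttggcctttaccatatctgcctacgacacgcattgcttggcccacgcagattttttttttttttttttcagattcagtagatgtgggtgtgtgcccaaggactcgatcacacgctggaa
Il18: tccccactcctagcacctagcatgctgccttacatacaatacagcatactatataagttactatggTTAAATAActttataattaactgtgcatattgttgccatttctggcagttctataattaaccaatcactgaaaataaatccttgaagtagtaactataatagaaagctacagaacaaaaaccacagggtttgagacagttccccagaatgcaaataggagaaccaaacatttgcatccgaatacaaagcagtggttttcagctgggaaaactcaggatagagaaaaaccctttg
Il18r1: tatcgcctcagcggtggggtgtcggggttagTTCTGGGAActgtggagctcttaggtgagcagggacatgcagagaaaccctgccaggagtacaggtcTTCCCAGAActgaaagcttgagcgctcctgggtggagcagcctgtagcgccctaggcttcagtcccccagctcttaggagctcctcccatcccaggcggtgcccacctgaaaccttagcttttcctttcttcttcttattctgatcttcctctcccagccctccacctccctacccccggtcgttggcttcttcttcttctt

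The Il6 window held 3 of the 5 motifs. Its NF-kB match, GGGATTTTCC, began 44 bases before the start, its C/EBP match, TTGTGCAA (the reverse complement of the motif), 128 before, and its AP-1 match, TGAGTCA, 249 before. Il1r2 held 1 STAT match, TTCAAGGAA, 111 bases before its start. Il18r1 held 2 STAT matches in the window shown, and 0 matches in the other windows, and Il18 held 1 D-box match, TTAAATAA. A match is a description of letters and does not show that a factor binds. Over all 32851 windows in the table, 8.46% held the NF-kB consensus, 7.81% AP-1, 8.3% STAT, 10.8% C/EBP and 6.0% the D-box form. Over the 72 windows of members, which in part overlap, the shares were 11.1%, 19.4%, 13.9%, 19.4% and 5.56%. Among the 16 matched members above the filter on both arrays, Il1r1 and Il4ra also held the NF-kB consensus. Their matches, GGAATGCCCC and GGAAAGCCCC, are reverse complements of it, and their differences were -0.61 and -0.19, neither past 2-fold. Il15ra held AP-1, Il7r held STAT, and Il18bp, Il1r1, Il33, Il3ra and Il7r held C/EBP. None of these was called.

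Interleukin-1 family ligands and antagonists comprised 11 members, of which 6 were below the filter on both arrays. Il33, the alarmin, was at 14.28 in air and 14.39 in smoke, which differ by 0.11. Il1b, a product of inflammasome-activated cells, was at 9.42 and 9.62. Both ligands differed by less than the robust SD of genes of like level, 0.35 and 0.49. Il1rn, the receptor antagonist, was at 4.53 in air, just under the filter, and 5.27 in smoke, which differ by 0.74. Il1a was below the filter, at 3.89 and 3.28. The interleukin-36 genes, listed as Il1f6, Il1f8 and Il1f9, their antagonist Il1f5, and Il1f10 ran from 2.46 to 3.66 on both arrays.

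Interleukin-1 family receptors comprised 8 members. Il1r1, the signalling receptor of interleukin-1, was at 11.09 in air and 10.48 in smoke, which differ by -0.61, within 2-fold. Il1rap, the accessory chain shared by the interleukin-1 and interleukin-33 receptors, was below the filter at 3.25 and 3.70. Il1rl2, the interleukin-36 receptor, was at 4.23 and 4.31, and the neuronal Il1rapl1 and Il1rapl2 were also below the filter, at most at 3.55.

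The receptor genes Il1r2, Il1r1, Il1rl2, Il18r1 and Il18rap lie in that order on chromosome 1. Each start was within 500000 bases of the next. Genes other than members were not placed, so some may lie between. In that order, the differences of the named genes were 1.12, -0.61, 0.08, -1.01 and 0.81. Il18r1 was past 2-fold as measured on both arrays, whereas Il1r2 passed the filter through the smoke array alone and was at 0.75 with the offset. On chromosome 2, 6 ligand genes from Il1f8 to Il1rn lie close together by the same rule. Il1rn was the 1 of them above the filter on an array. On chromosome 11, Il4, Il13 and Il5 had differences of -0.18, 0.16 and -0.09. Il17re and Il17rc, close together on chromosome 6 by that rule, differed by -0.07 and -0.02.

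Common gamma chain cytokines, interleukin-13 and their receptors comprised 16 members, 6 above the filter on both arrays. Il15, which sustains NK cells and memory T cells, was at 5.07 in air and 4.96 in smoke. Il15ra, which presents it, was at 6.38 and 7.08, a difference of 0.70, within 2-fold. Il4ra and Il13ra1, which form the receptor for interleukin-4 and interleukin-13 on epithelium, were at 10.75 and 10.56 and at 9.60 and 9.55. These type 2 receptor chains thus differed by -0.19 and -0.05. The ligands Il4 and Il13 were below the filter, at 2.12 and 1.94 and at 3.91 and 4.07, and so were Il2, Il9 and Il21. Il13ra2, a decoy for interleukin-13, was at 3.66 and 4.38, and Il2ra, which marks activated and regulatory T cells, at 4.47 and 3.83.

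Common beta chain members were 4. Il3ra, the binding chain for interleukin-3, was at 6.23 in air and 6.53 in smoke. Il5, the eosinophil growth factor, was at 4.59 and 4.50, on either side of the filter, while Il3 and Il5ra were below it. The gp130 group held 8 members; beyond Il6, Il6ra and Il6st, the other 5, among them Il11, Il27 and Il31, had signals from 1.95 to 3.80. All 5 members of the interleukin-12 and interleukin-23 group, which drive T helper responses, were below the filter on both arrays, with signals from 2.19 to 3.96 and differences from -0.51 to 0.15.

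The interleukin-10 family had 11 members, and 9 were below the filter on both arrays. Il10 was at 3.94 in air and 4.01 in smoke, Il22 at 3.53 and 3.24, and Il20 at 3.60 and 2.76. Il22ra2, a soluble binder of interleukin-22, was at 1.87 and 2.01. Of this family only Il10rb and Il10ra were above the filter on both arrays.

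The interleukin-17 family had 11 members and 4 above the filter on both arrays, of which 1 was called, Il17b on the lower side. Il17ra, the shared signalling chain, was at 7.24 in air and 6.96 in smoke. Il17rc, which pairs with it for interleukin-17A and interleukin-17F, was at 10.18 and 10.16, and Il17re, which pairs with it for interleukin-17C, at 8.09 and 8.02. The 3 receptor chains differed by -0.28, -0.02 and -0.07, within the robust SD of genes of like level, and only Il17b passed 2-fold. The ligands Il17a, Il17f, Il17c, Il17d and Il25 were below the filter on both arrays, the brightest of their values being 4.41 for Il17c in air.

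Il34, a ligand of the macrophage receptor encoded by Csf1r, was at 7.83 in air and 8.23 in smoke. Csf1r was at 6.69 and 6.54. Il16, a leukocyte chemoattractant, was at 3.88 and 4.73, a difference of 0.85 that crossed the filter.

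**Figure D3:**
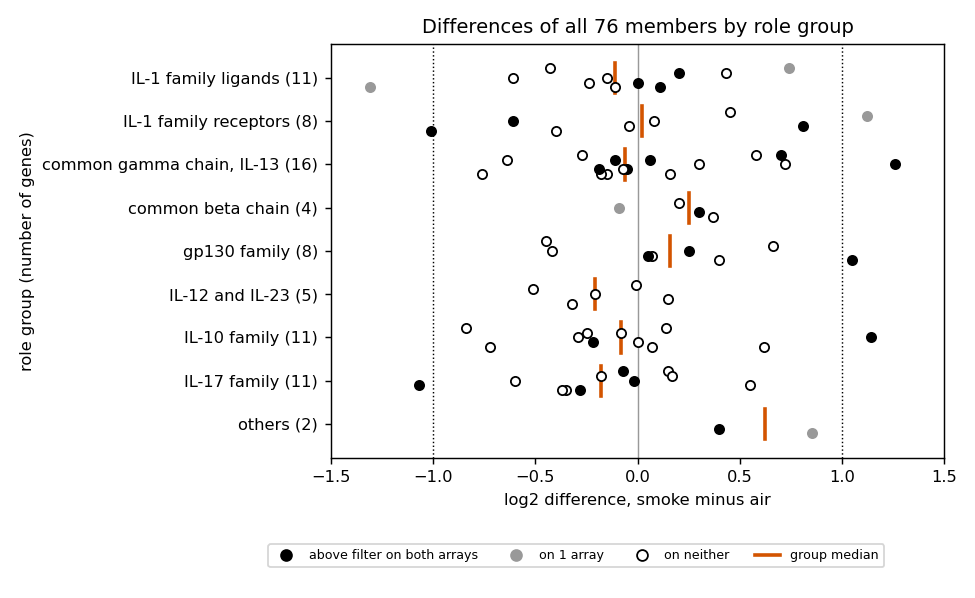
Log2 differences, smoke minus air (x axis), of all 76 members by role group (y axis, number of genes in brackets); black points were above the filter on both arrays, grey on 1 and open on neither, the orange bar is the group median and dotted lines mark 2-fold. Open points fill most groups, and the 5 black points past a dotted line are Il7, Il10rb, Il6, Il18r1 and Il17b.

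Receptors and ligands were both spread around 0. The 36 receptor chains had a median difference of -0.005, with 2 called higher and 1 lower, and 15 were above the filter on both arrays. The 40 ligands and soluble proteins had a median of -0.10, with 2 higher and 2 lower, and 8 above the filter on both arrays. Below the filter on both arrays were 28 of 40 ligands and soluble proteins and 20 of 36 receptor chains; no test of that difference was run.

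How the differences of the called members depend on low signals was examined with 3 treatments. Under quantile normalization and after centring on genes of like level all 7 stayed at or past 2-fold, some of them barely. Under quantile normalization Il6 stood on the threshold and Il10rb at 1.02. After centring, Il10rb was at 1.005, Il17b at -1.0075 and Il6 at 1.01. With the offset of 16, Il7, Il10rb and Il18r1 stayed past 2-fold, at 1.11, 1.13 and -1.01. Il6 was then at 0.85, Il1r2 at 0.75, Il17b at -0.74 and Il18 at -0.66.

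**Figure D4:**
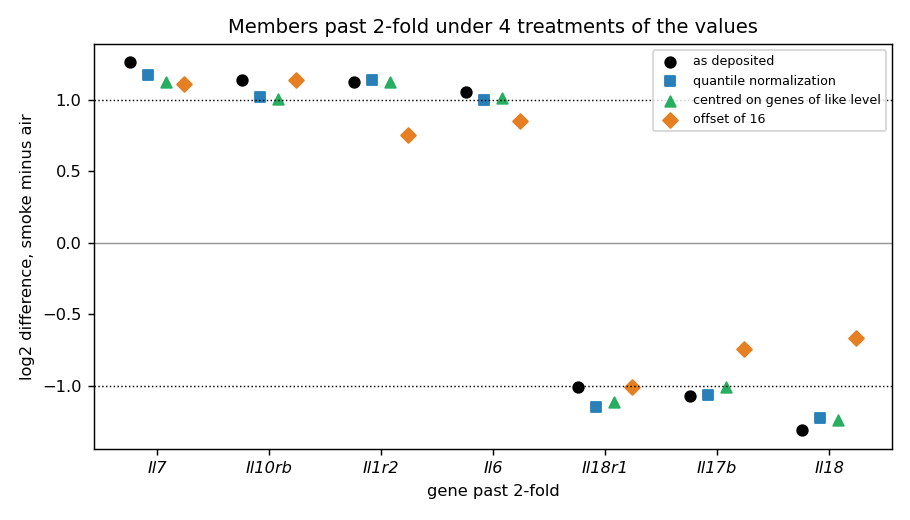
Log2 difference, smoke minus air (y axis), of the 7 members past 2-fold (x axis) as deposited, after quantile normalization, after centring on genes of like level and with 16 added to the linear signals; dotted lines mark 2-fold. Quantile normalization and centring keep every sign, which the offset cannot change. The offset brings Il6, Il1r2, Il17b and Il18 inside the dotted lines.

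Genes through which interleukins signal, other than the members, were followed in 4 lists. Of 52 genes in the table, 1 was called higher and 1 lower, a share near the 3.43% called among all genes. In the list of shared chains and partner cytokines, 1 of 12 genes was called: Osmr, the oncostatin M receptor chain that pairs with gp130, was at 9.22 in air and 10.30 in smoke, higher by 2.11-fold, with a difference of 0.97 under quantile normalization. Lifr, its relative, was at 10.98 and 11.09, and the list's median was -0.06. Tslp, Ebi3, Lif, Osm and Clcf1 were below the filter on both arrays.

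Among 14 adaptors of the interleukin-1 and Toll receptors, 0 passed 2-fold, 9 were above 0 and the median difference was 0.34. Of the 13 above the filter on both arrays, 8 were above 0, with a median of 0.28. Of all 9510 such genes, 5280 were above 0, with a median of 0.07. Among the adaptors above the filter, Myd88 differed most, by 0.68. This adaptor of both receptor types was at 9.32 in air and 10.00 in smoke. Irak3, a kinase that restrains the pathway, was at 6.20 and 5.74. In the list of Janus kinases, STATs and SOCS inhibitors, 1 of 16 genes was called: Pias1, a SUMO ligase, was at 10.71 and 9.60, 2.16-fold lower. Stat3, the factor downstream of gp130 and the interleukin-10 receptor, was at 12.94 in air and 13.87 in smoke, which differ by 0.93, within 2-fold. The list's median was 0.20, and it was 0.11 under quantile normalization; that of the adaptors was then 0.22.

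The inflammasome list, which makes the mature forms of interleukin-1 beta and interleukin-18, had 10 genes and 0 past 2-fold, with a median of -0.005. Only Casp4, Gsdmd and Nek7 were above the filter on both arrays. Gsdmd, the pore protein that releases both cytokines, was at 7.52 in air and 6.68 in smoke, which differ by -0.84, and Casp4 was at 6.63 and 7.35. Casp1, the converting enzyme, was below the filter at 3.47 and 4.30, as were Nlrp3 and Pycard.

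**Figure D5:**
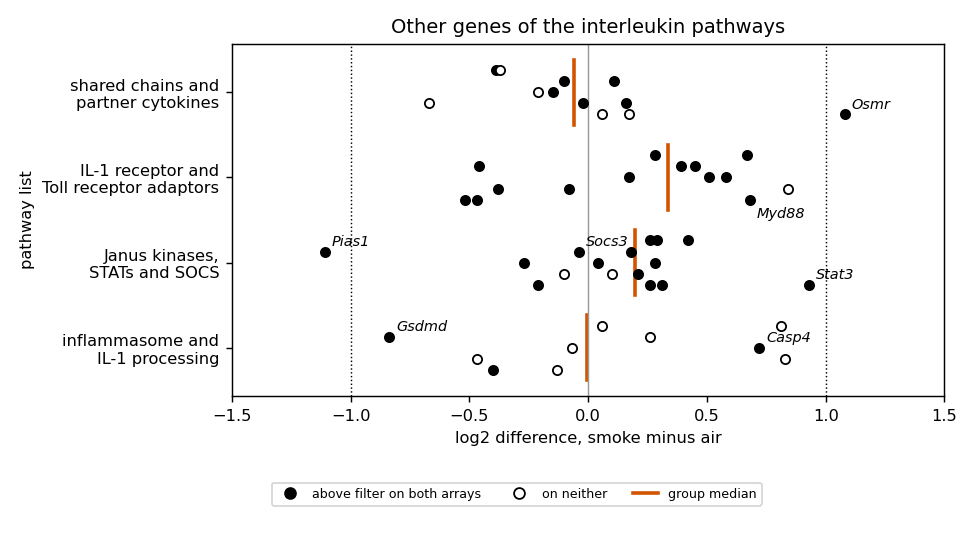
Log2 differences, smoke minus air (x axis), of the 52 other pathway genes in 4 lists (y axis); black points were above the filter on both arrays and open points on neither, the orange bar is the list median and dotted lines mark 2-fold. Osmr and Pias1 are the points beyond the dotted lines, and Stat3 lies just inside at 0.93.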

How the data were processed

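Total RNA of sorted lung cells from 1 air and 1 smoke sample was hybridised to Clariom S Mouse arrays, per the labels. The authors deposited 1 value per probe and array, read here as log2 signal from its range of 1.55 to 19.93; the labels do not state the scale, the centring or the normalization. Per the submitters' processing notes, the software was Transcriptome Analysis Console; its version, the build and the background correction are not given in the sources used. The direction follows from the sample labels.

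Of 22206 probes, 19572 had 1 gene symbol, 0 had several and 2634 are unnamed here; all 19572 matched RefSeq genes (GRCm38.p6, used for names, gene order and promoter windows), and 0 symbols changed. Probes of 1 gene were averaged (55 genes), and 16 genes that reached the upper limit in both samples were left out. With 1 array per group no test was possible; the number of arrays limits the precision. Named genes were the called members, those above the filter on both arrays, and the called or largest genes of each pathway list; others were chosen after their values were seen. Members and lists were chosen with earlier results of these data known. Alternatives were other filters, thresholds, quantile normalization, centring by level, an offset and the brightest probe. The procedure was tested on simulated data. The differences planted there were larger than those of the called members, and in genes brighter than most of them. The test therefore does not show how reliable calls near 2-fold are. Python 3.11.15, numpy 2.4.6 and pandas 2.3.3 were used.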

Additional observations from a re-analysis of the deposited data

How the results depend on the processing

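The count of members at least 2-fold higher was 4, and that of members at least 2-fold lower was 3. With the filter at the 75th percentile of all probe values, 7.6, the counts were 1 and 1. With the offset of 16 they were 2 and 1. At 3-fold they were 0 and 0, and at 1.5-fold 8 and 4. The shares of all genes called under these changed settings were not computed. The counts therefore have no background beside them and are not read as an excess. The counts were 4 and 3 with no filter, under quantile normalization and after centring, and 3 and 2 with both arrays above the filter. With the brightest probe they were also 4 and 3. Each member had 1 probe, so that setting could not change them. The median difference of the members ran from -0.03 to 0.055 over these settings, so its sign is not settled. Of the differences of the 25 members called or above the filter on both arrays, 1 moved by more than the robust SD of genes of like level, that of Il18 with the offset. None of the 7 called members changed sign under quantile normalization or centring. The offset keeps the order of the air and smoke signals, so it could not change a sign. No paired analysis was possible because each group is 1 array, and no replicate could be left out. No detection calls were used, so a signal below the filter may be background.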

Other observations

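Among members below the level filter on both arrays, 4 lay at least 2 robust SDs from genes of like level. Il31, a cytokine of itch and type 2 inflammation, was at 1.96 in air and 2.62 in smoke. Il17rb, the binding chain for interleukin-25, was at 1.94 and 2.49. Il24 was at 2.13 and 2.75, and Il20ra, a chain of the receptors for interleukin-20 and interleukin-24, was at 2.96 and 2.24. With the offset of 16 their differences were 0.16, 0.12, 0.16 and -0.20. Genes at this level have a narrow spread on the deposited scale, with a robust SD of 0.24 to 0.30 for these 4.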
